A study of Mus musculus with 4 samples.

Results

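Adhfe1, Sult1a1, Zfp981, Sva and Pdgfc are 5 of the 32285 genes counted in single hematopoietic stem and progenitor cells of mice with and without Sin3b. They were picked by name because earlier results from these same cells showed a higher level without Sin3b. The genotype difference that chose them is therefore described here and supports nothing. How the difference was spread over single cells and over progenitor classes was fixed by the choice only in part, and those are the questions taken up below.

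Single-cell RNA-Seq was performed on LSK cells (Lineage-negative, Sca-1-positive, cKit-positive bone marrow cells, which hold the stem cells and multipotent progenitors) from C57BL/6 mice. Knockout cells carried a floxed Sin3b allele deleted by Vav1-iCre, a recombinase active across the hematopoietic system from before birth, and the controls, called wild type, were Sin3B F/F. Each of 2 libraries mixed cells of 2 wild-type and 2 knockout mice, stained by genotype with TotalSeq-B0096 (wild type) or TotalSeq-B0157 (knockout). The homeostasis mice were untreated males, and the other library was made 9 days after 100 mg/kg of 5-fluorouracil (5-FU), a drug that kills dividing cells. Mice within a genotype were pooled without a mark of their own, so there is 1 pool per genotype in each library, no replicate and no test. All intervals are 95% and cover counting error only. Condition and library coincide and cannot be told apart.

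SIN3B is a scaffold protein that brings histone deacetylases to promoters and is best known for holding genes down in resting cells. The 5 genes belong to no common pathway. Adhfe1 encodes a mitochondrial transhydrogenase that oxidises gamma-hydroxybutyrate while reducing alpha-ketoglutarate to D-2-hydroxyglutarate. Sult1a1 encodes a cytosolic sulfotransferase that adds sulfate to phenols from the donor PAPS. Zfp981 is a zinc finger gene of a large mouse cluster on chromosome 4, many of whose members carry a KRAB domain that recruits the corepressor TRIM28. Sva, seminal vesicle antigen, is a secreted protein of the prolactin-induced protein family, known from the male reproductive tract and not from blood. Pdgfc encodes a secreted platelet-derived growth factor that is cleaved outside the cell and signals through the receptor PDGFRA.

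The genes lie on different chromosomes in GRCm38 (GENCODE M21). Adhfe1 (ENSMUSG00000025911) spans chr1:9547948-9580673 on the plus strand and Sult1a1 (ENSMUSG00000030711) spans chr7:126672865-126676432 on the minus strand. Zfp981 (ENSMUSG00000056300) spans chr4:146502027-146539395, Sva (ENSMUSG00000023289) spans chr6:42038394-42042851 and Pdgfc (ENSMUSG00000028019) spans chr3:81036416-81214040, all on the plus strand. All are annotated as protein coding. The RefSeq promoter windows of 4 of them, from 250 bases before to 50 after the start (GRCm38.p6), are shown because a corepressor acts at promoters. Capitals mark every match on either strand to 6 motifs of factors that work with or against SIN3 complexes: CACGTG (the E-box of MYC and MXD proteins), TTTGAA (the cell cycle homology element of the DREAM complex), TTTCCCGC and TTTGGCGC (E2F), GGGCGG (Sp1) and TGCGCNC (part of the NRF1 site).

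Sult1a1: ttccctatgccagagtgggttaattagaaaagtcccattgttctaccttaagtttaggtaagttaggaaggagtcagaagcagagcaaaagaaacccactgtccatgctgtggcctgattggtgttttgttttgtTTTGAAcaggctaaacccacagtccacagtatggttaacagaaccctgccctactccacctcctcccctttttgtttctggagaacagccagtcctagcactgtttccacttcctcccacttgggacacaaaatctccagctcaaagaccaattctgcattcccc
Zfp981: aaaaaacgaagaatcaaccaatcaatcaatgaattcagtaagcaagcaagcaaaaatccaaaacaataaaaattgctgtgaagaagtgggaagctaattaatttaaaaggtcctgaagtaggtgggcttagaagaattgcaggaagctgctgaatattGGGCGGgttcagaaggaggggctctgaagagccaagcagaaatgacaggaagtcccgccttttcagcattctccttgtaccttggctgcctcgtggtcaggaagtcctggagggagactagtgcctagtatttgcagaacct
Sva: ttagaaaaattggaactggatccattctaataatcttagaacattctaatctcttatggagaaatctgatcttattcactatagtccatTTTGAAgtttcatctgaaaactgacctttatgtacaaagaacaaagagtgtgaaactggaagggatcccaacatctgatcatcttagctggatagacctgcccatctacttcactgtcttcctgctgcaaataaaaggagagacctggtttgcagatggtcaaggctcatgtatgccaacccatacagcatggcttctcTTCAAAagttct
Pdgfc: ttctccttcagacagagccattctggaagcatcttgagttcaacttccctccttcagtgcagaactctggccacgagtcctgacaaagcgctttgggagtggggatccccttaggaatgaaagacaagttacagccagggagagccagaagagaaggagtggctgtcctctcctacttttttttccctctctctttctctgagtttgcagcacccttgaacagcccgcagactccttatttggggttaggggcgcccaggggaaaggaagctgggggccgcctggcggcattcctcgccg

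The windows are chr7:126676369-126676668 (minus strand) for Sult1a1, chr4:146514670-146514969 (plus) for Zfp981, chr6:42038144-42038443 (plus) for Sva and chr3:81036166-81036465 (plus) for Pdgfc. TTTGAA matched 1 time in the Sult1a1 window and 2 times in the Sva window, against 17.9% of all 32851 windows holding it. GGGCGG matched 1 time in Zfp981, and 35.7% of windows hold it. The Pdgfc window held none of the 6 motifs. CACGTG (7.15% of windows), TTTCCCGC (1.07%), TTTGGCGC (0.514%) and TGCGCNC (15.4%) matched none of the 4. The Sult1a1 and Sva windows held 0 CG dinucleotides, as do 5.43% of all windows, while Zfp981 held 4 and Pdgfc 8, beside a median of 7. The Zfp981 window is that of the RefSeq start, which lies inside the GENCODE span given above and downstream of its first base. A match is a run of letters and not a bound site.

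The targeted gene was checked first. At homeostasis Sin3b was at 81.8 CPM (a gene's UMIs per 1000000 UMIs of its pool) with the gene intact and 23.0 CPM without it, a log2 ratio of -1.83 (-1.94 to -1.72). After 5-FU the levels were 112.6 and 15.1 CPM, a log2 ratio of -2.90 (-3.02 to -2.78). Which exons the floxed allele removes, and so which of the remaining UMIs come from deleted transcripts, is stated in no source used here. The homeostasis pools were of 10218 (wild type) and 4103 (knockout) cells and the 5-FU pools of 4809 and 3247, with median depths between 6609 and 10849 UMIs per cell and between 31900382 and 83079229 UMIs per pool. Of the cell barcodes, 76 occurred in both libraries. Before cells with lineage genes were removed, genes of mature blood lineages summed to between 19.8 and 54.9 CPM, and in the pools used bone marrow stromal genes summed to below 0.747 CPM. The endothelial genes Cdh5, Emcn and Pecam1, of which Emcn and Pecam1 are also made by stem cells, summed to between 90.8 and 207.3 CPM.

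At homeostasis all 5 genes were at least 2-fold higher in knockout cells, as were 1.9% of the 15527 genes with at least 50 UMIs. Since the genes were chosen for this, the count says nothing about them. Adhfe1 had 82 wild-type and 143 knockout UMIs, which is 0.987 and 4.48 CPM, a log2 ratio of 2.18 (1.78 to 2.59). Sult1a1 had 1252 and 1559 UMIs, which is 15.1 and 48.9 CPM, with a log2 ratio of 1.70 (1.59 to 1.81). Zfp981 had 1255 and 3218 UMIs, which is 15.1 and 100.9 CPM (2.74, 2.65 to 2.84). Between genotypes the intervals of all 3 levels were apart.

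The gene with the widest gap was Sva, with 97 UMIs in the wild-type pool and 515 in the knockout pool, or 1.17 and 16.1 CPM, a log2 ratio of 3.79 (3.47 to 4.12). Ordered by this ratio, Sva stood first of the 15527 genes, Zfp981 18, Pdgfc 30, Adhfe1 36 and Sult1a1 64. Pdgfc had 216 and 421 UMIs, or 2.60 and 13.2 CPM (2.34, 2.10 to 2.59). None of the 5 was without UMIs in wild-type cells.

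**Figure D1:**
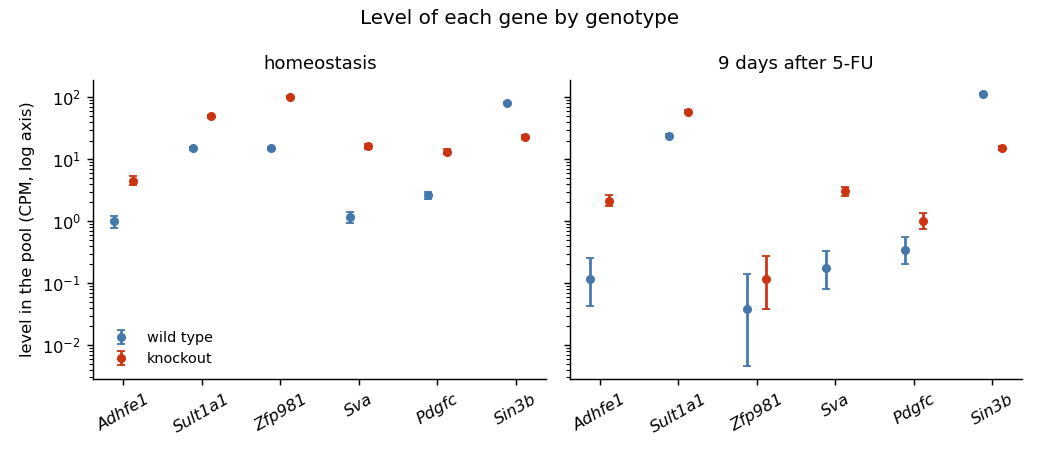
Level of each gene and of Sin3b (CPM, log axis) in the wild-type and knockout pools of each library. Points are pool levels and bars exact Poisson 95% intervals, and the knockout level lies above the wild-type level for the 5 genes and below it for Sin3b, with overlapping intervals for Zfp981 after 5-FU only.

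After 5-FU, 4 of the 5 genes had the 50 UMIs set as minimum and all 4 were at least 2-fold higher in knockout cells, beside 1.23% of 13489 genes. The minimum is over both genotypes, and Adhfe1, Sva and Pdgfc reached it mainly through knockout UMIs. As the genes were also chosen for a higher knockout level, this count says nothing about them. Adhfe1 was counted 6 times in wild-type and 91 times in knockout cells, 0.116 and 2.14 CPM, a log2 ratio of 4.21 (3.03 to 5.69). The wild-type pool thus held almost none of it. Sva was similar, with 9 and 128 UMIs, 0.174 and 3.02 CPM and a log2 ratio of 4.12 (3.15 to 5.28). Sult1a1 had 1235 and 2492 UMIs, or 23.8 and 58.7 CPM (1.30, 1.20 to 1.40). For Pdgfc the counts were 18 and 43, or 0.348 and 1.01 CPM (1.54, 0.72 to 2.43).

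Zfp981 was nearly missing from the 5-FU library in both genotypes. It had 2 UMIs in the 4809 wild-type and 5 in the 3247 knockout cells, against 1255 and 3218 at homeostasis, and its ratio there (1.61, -1.001 to 5.00) could not be read at this depth. The level in the homeostasis library was 391-fold (108 to 3234) that of the 5-FU library in wild-type and 856-fold (367 to 2639) in knockout cells. For Adhfe1 the same comparison gave 8.52-fold and 2.09-fold, for Sva 6.72-fold and 5.35-fold, and for Pdgfc 7.48-fold and 13.03-fold, while Sult1a1 was at 0.632 and 0.832 of its 5-FU level. The 2 count matrices came from different versions of Cell Ranger. Across 11396 protein-coding genes in wild-type cells, the ratio of homeostasis to 5-FU levels had a Spearman correlation of 0.64 with the number of intron bases in the gene. Sult1a1 has 2061 intron bases, Sva 3807, Adhfe1 28946, Zfp981 34205 and Pdgfc 172536. What part the counting had in the absence of Zfp981 was not tested.

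Some of these genes share sequence with other genes or overlap them. Of all 91-base stretches of the annotated Zfp981 transcripts, 15.5% also occur in transcripts of 8 other genes, most often Zfp600, so part of its reads could not be placed with certainty. The share was 2.33% for Sult1a1, all with the gene Gm6939, and 0 for Adhfe1, Sva and Pdgfc. Within the last 500 bases of the transcripts it was 14.7% for Zfp981 and 3.97% for Sult1a1. Introns were not searched. Sult1a1 overlaps Sgf29 at its end on the opposite strand, where Sgf29 itself had log2 ratios of 0.24 and 0.14. The measured genes on the opposite strand inside Adhfe1, Zfp981 and Pdgfc had at most 64 UMIs in any pool, and a further 2 inside Zfp981, Gm26573 and Gm26880, were not analysed here. Nor was Gm6161, a pseudogene that overlaps Adhfe1 on the same strand.

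To see whether the difference was on-off or graded, each cell was thinned to 4000 UMIs, and shallower cells (between 165 and 512 per pool) were left out. If all cells of a pool held the same level, the number of UMIs per cell would follow a Poisson distribution with a variance equal to its mean. Cells of different levels give fewer positive cells, more UMIs in each, and a ratio of variance to mean above 1. At a lower mean the same relative spread between cells gives a ratio closer to 1, so neither genes nor pools of unlike level are ranked by it.

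For Sva the share of positive knockout cells was near that of a single low level, with an excess of cells holding 2 or more UMIs. At homeostasis 40 of 9733 wild-type cells (0.411%, 0.294 to 0.559) and 244 of 3878 knockout cells (6.29%, 5.55 to 7.10) had an Sva UMI, where 6.49% were expected from 1 level. Positive cells held 1.03 UMIs on average in wild type and 1.07 in knockout. At counts this low a level shared by all cells also gives close to 1 UMI per positive cell, and a graded rise in every cell cannot be told from a larger number of expressing cells. At least 2 UMIs were found in 15 knockout cells (0.387%, 0.217 to 0.637), where 8.34 were expected, and the variance was 1.06 times the mean. Unthinned, 0.920% and 11.3% of cells were positive.

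Adhfe1 was found in fewer cells. Its UMIs were found in 0.401% (0.285 to 0.547) of wild-type and 1.83% (1.43 to 2.30) of knockout cells, where 1.89% were expected from 1 level. At least 2 UMIs were found in 3 knockout cells against 0.697 expected, and the variance was 1.06 times the mean. After 5-FU the shares were 3 of 4297 and 25 of 3082 cells for Adhfe1, and 1 and 39 cells for Sva. At so few UMIs per cell, moderate differences between cells would not be seen.

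Zfp981 was spread widely but unevenly. At homeostasis it was found in 4.90% (4.48 to 5.35) of wild-type cells, against 29.4% (28.0 to 30.9) without Sin3b, where 32.3% were expected, with 1.07 and 1.33 UMIs per positive cell. As many as 63 knockout cells (1.63%, 1.25 to 2.07) held 3 or more UMIs, where 28.8 were expected, and the variance was 1.24 times the mean. Unthinned, 43.4% of knockout cells had a UMI.

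Sult1a1 and Pdgfc also departed from 1 level in knockout cells. Sult1a1 was found in 5.52% (5.07 to 5.99) of wild-type and 14.8% (13.7 to 15.99) of knockout cells, where 19.5% were expected, and UMIs per positive cell went from 1.21 to 1.46. As many as 59 knockout cells held 3 or more UMIs, against 5.57 expected. After 5-FU 20.1% of knockout cells were positive against 31.5% expected, with a variance 2.74 times the mean and up to 11 UMIs in a cell. Wild-type cells also departed from 1 level for this gene, with a variance 1.37 times the mean at homeostasis and 1.62 after 5-FU.

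At homeostasis Pdgfc was found in 0.884% (0.707 to 1.09) of wild-type cells, against 3.77% (3.19 to 4.41) without Sin3b, where 5.93% were expected. The positive cells averaged 1.23 (wild type) and 1.62 (knockout) UMIs, and 20 knockout cells held 3 or more against 0.141 expected. Its variance was 1.59 times the mean in wild-type and 2.48 times in knockout cells. The means were 0.0109 and 0.0611 UMIs per cell, so these ratios do not say which genotype had the wider relative spread. After 5-FU there were 8 and 19 positive cells, too few to tell the forms apart.

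**Figure D2:**
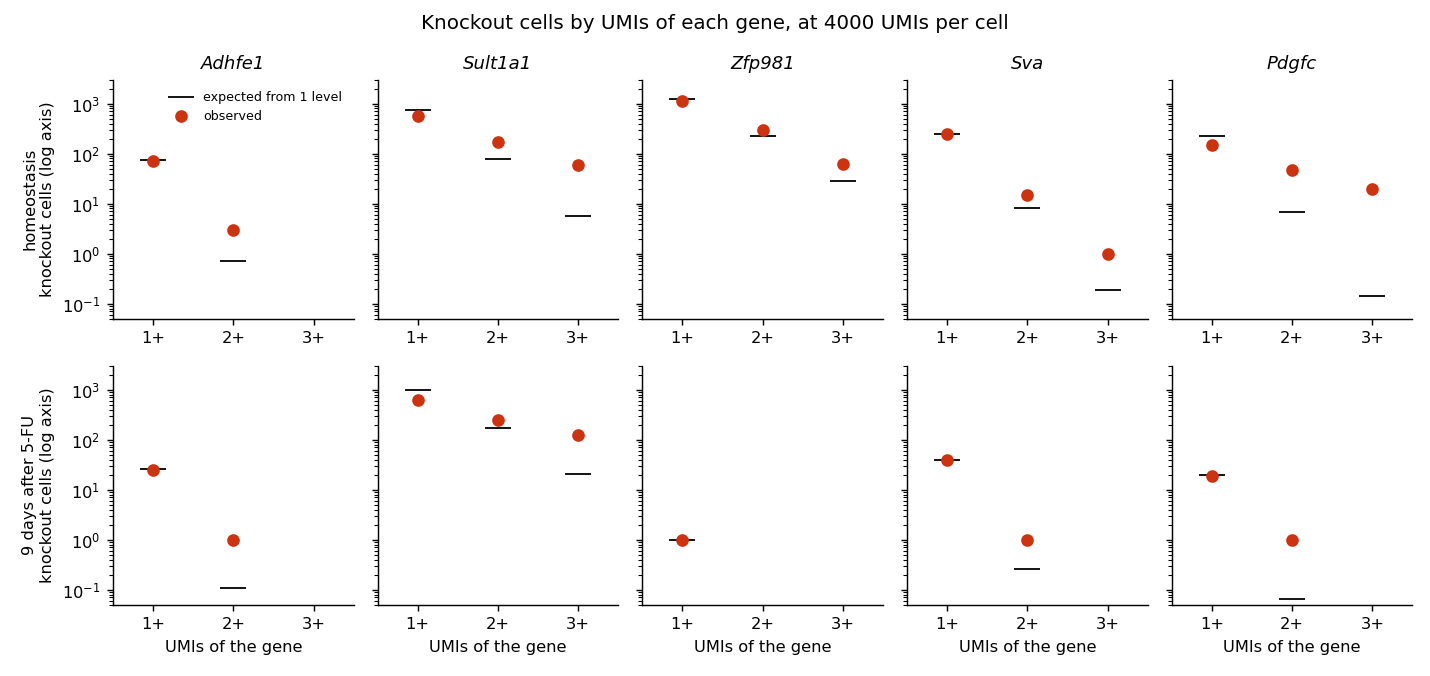
Number of knockout cells (log axis) with at least 1, 2 and 3 UMIs of each gene after thinning to 4000 UMIs, for both libraries. Dots are observed cells (none drawn at 0) and bars the number expected if every cell held the pool's level, and Sult1a1, Zfp981 and Pdgfc at homeostasis have fewer cells with at least 1 UMI and more with 3 or more than expected (59, 63 and 20 cells against 5.57, 28.8 and 0.141).

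At homeostasis a UMI of at least 1 of the 5 genes was found in 11.4% (10.8 to 12.1) of wild-type cells, against 47.2% (45.6 to 48.7) of knockout cells, and in 9.87% (8.99 to 10.8) and 22.0% (20.5 to 23.5) after 5-FU. Few of the genes carried these shares. Of the 1829 positive knockout cells at homeostasis, 1141 held Zfp981 and 575 held Sult1a1. Of the 678 after 5-FU, 619 held Sult1a1 and 1 held Zfp981. The pairs of genes differed in how often knockout cells held both. At homeostasis Sult1a1 and Pdgfc were found together in 76 cells where independence gives 21.7, a ratio of 3.51 (2.77 to 4.39), and within stem-positive cells the ratio was 3.12 (2.45 to 3.90). After 5-FU they were found together in 10 cells against 3.82 (2.62, 1.26 to 4.82), and within stem-positive cells in 9 against 4.93, with an interval that includes 1 (0.835 to 3.47). At homeostasis Sult1a1 and Zfp981 shared 106 cells where 169.2 were expected, a ratio of 0.627 (0.513 to 0.758). Within stem-positive cells that ratio was 0.6445 (0.524 to 0.785). Zfp981 and Pdgfc shared 29 cells against 42.96 (0.675, 0.452 to 0.97), with an interval that includes 1 within stem-positive cells (0.479 to 1.03). Sva was found with Zfp981 in 82 cells against 71.8, and with Sult1a1 in 41 against 36.2, both with intervals that include 1. Zfp981 had too few UMIs after 5-FU for its pairs to be read there. At homeostasis 29 knockout cells held UMIs of 3 or more of the genes.

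Both genotypes were loaded together, so free RNA from lysed cells could reach barcodes of either. Empty barcodes of the homeostasis library held 19 UMIs of Adhfe1, 140 of Sult1a1, 468 of Zfp981, 26 of Sva and 64 of Pdgfc. Scaled by hemoglobin, which LSK cells do not make, free RNA could give at most 5.53% of wild-type UMIs. That allows 19.7% of the wild-type Adhfe1 UMIs, 9.48% of Sult1a1, 31.6% of Zfp981, 22.7% of Sva and 25.1% of Pdgfc. In knockout cells it allows at most 2.84% of any of the 5. The 5-FU matrix listed no barcode below 500 UMIs, so the same estimate could not be made there.

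The tags were checked against Sin3b in the same cells. At homeostasis, 27.5% (14.6 to 43.9) of the wild-type cells with an Sva UMI also had a Sin3b UMI, as did 24.7% (20.9 to 28.9) of those with Zfp981, beside 27.8% of all wild-type cells and 9.00% of all knockout cells. Another tag rule (1 tag holding at least 80% of at least 10 tag UMIs) gave 6175 wild-type and 868 knockout cells, against 10218 and 4103. The wild-type level was then 0.403 CPM (22 UMIs) for Sva and 8.73 CPM (476 UMIs) for Zfp981, with knockout levels of 15.0 and 107.1 CPM. What free RNA allows was not estimated for the pools of that rule. Under that rule wild-type Sult1a1 was at 13.4 CPM, Pdgfc at 2.38 CPM and Adhfe1 at 0.789 CPM. The part of free RNA and wrong tags in the wild-type levels was not tested further.

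Whether the difference holds along the lineages was asked in marker-positive cells. A cell was positive for stem (8 markers such as Procr, Hlf and Mecom), myeloid (8, such as Mpo and Elane), megakaryocyte-erythroid (11, such as Gata1 and Pf4) or lymphoid (8, such as Dntt and Flt3) when at least 2 markers had a UMI at 4000 UMIs. The stem class was broad, taking 78.6% (wild type) and 84.1% (knockout) at homeostasis and 54.1% and 63.5% after 5-FU. Lymphoid cells made up 46.8% and 30.7% at homeostasis, myeloid cells 24.8% and 14.4%, and megakaryocyte-erythroid cells 8.55% and 14.03%. Classes overlapped, and at homeostasis between 66.5% and 83.6% of the cells in the other 3 classes were also stem-positive. After 5-FU this was between 31.6% and 56.3%. Within a class the markers themselves differed by genotype at homeostasis, with a summed level of 1900 CPM (wild type) and 2314 CPM (knockout) in stem, 1092 and 1186 in myeloid, 670.4 and 1196 in megakaryocyte-erythroid and 1471 and 1298 in lymphoid cells. Their part in the ratios by class was not tested.

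At homeostasis the 2-fold line was passed by all 5 genes in stem cells (2.62% of all measured genes), by all 5 in myeloid cells (2.11%) and megakaryocyte-erythroid cells (1.55%), and by 3 in lymphoid cells (1.96%), where Sult1a1 (0.98) passed it under the 80% tag rule (1.715). The genes were chosen on these cells and most of the cells were stem-positive, so the counts by class, above all in stem cells, are in large part fixed by the choice and nothing is read from them. After 5-FU the 2-fold line was passed by 4 genes in stem cells (1.82%) and 4 in megakaryocyte-erythroid cells (1.48%). In both classes Adhfe1, Sva and Pdgfc reached the minimum of 20 UMIs over both genotypes mainly through knockout UMIs. Nothing is read from these counts either. In 5-FU myeloid cells (1.03%) and lymphoid cells (0.943%) Sult1a1 was the only 1 of the 5 with the 20 UMIs set as minimum there, and it did not pass the line. Below that minimum, 5-FU myeloid cells held 2 wild-type and 16 knockout UMIs of Sva (4.02, 1.93 to 7.19). Of Adhfe1 they held 0 and 10 UMIs, which give no ratio.

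Some of these ratios fell below 2-fold in narrower classes. At homeostasis Sult1a1 in myeloid cells had a log2 ratio of 1.19, but 0.53 (46 and 10 UMIs) in cells with at least 3 myeloid markers. In cells positive for that class alone it was 0.10 (-2.35 to 1.97) on 13 and 3 UMIs, too few to be read. Zfp981 in megakaryocyte-erythroid cells fell short of 2-fold with at least 3 markers (0.57, 28 and 33 UMIs). With at least 3 markers Adhfe1 rested on 9 and 1 UMIs in myeloid cells (-0.44) and 14 and 5 in lymphoid cells (0.92), and Pdgfc on 4 and 3 in megakaryocyte-erythroid cells (-0.077), all under the minimum of 20, so these ratios could not be read. The same holds for Adhfe1 in myeloid-only cells (1.63, 3 and 2 UMIs). Pdgfc had 2 wild-type and 0 knockout UMIs in myeloid-only cells and none in megakaryocyte-erythroid-only cells.

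In knockout cells Sva was flat across classes. Its knockout level at homeostasis was 16.1 CPM in stem, 14.3 in myeloid, 16.5 in megakaryocyte-erythroid and 18.1 in lymphoid cells, and its wild-type level between 1.31 and 1.79 CPM. The log2 ratio ran from 3.20 to 3.79 and the intervals of neighbouring knockout levels overlapped. In cells with fewer than 2 stem markers the level was 0.548 CPM in wild-type and 17.1 CPM in knockout cells, and in cells with at least 4 it was 1.57 and 16.3 CPM. After 5-FU the knockout level was 3.46 CPM in stem, 2.82 in myeloid and 3.43 in megakaryocyte-erythroid cells, and rested on 4 UMIs in lymphoid cells. The wild-type level was 0.123 CPM (3 UMIs) in stem, 0.173 (2 UMIs) in myeloid and 0.222 (3 UMIs) in megakaryocyte-erythroid cells.

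Zfp981 was also higher without Sin3b in every class at homeostasis, but not to the same level. Wild-type cells were close to flat, between 14.6 and 17.8 CPM. Knockout cells reached 146.3 CPM (138.9 to 153.8) in lymphoid, 127.5 (118.0 to 137.6) in myeloid, 95.2 (91.5 to 99.1) in stem and 50.7 (44.4 to 57.7) in megakaryocyte-erythroid cells, and no intervals of neighbours in this order overlapped. The log2 ratio was 3.04 (2.91 to 3.17) in lymphoid and 1.80 (1.46 to 2.14) in megakaryocyte-erythroid cells. In cells positive for the lymphoid class alone the levels were 14.5 and 170.1 CPM.

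Adhfe1 was between 3.09 and 5.06 CPM in the knockout cells of all 4 classes at homeostasis and between 0.551 and 1.05 CPM in wild type. The log2 ratio was 2.41 (1.96 to 2.88) in stem, 1.82 (0.77 to 2.84) in myeloid, 3.20 (1.65 to 5.19) in megakaryocyte-erythroid and 1.70 (1.01 to 2.39) in lymphoid cells. In lymphoid-only cells the ratio was -0.35 (-3.625 to 1.97) on 8 and 2 UMIs, too few to be read. Outside the stem class Adhfe1 had 19 and 10 UMIs, 1.04 and 1.80 CPM (0.79, -0.48 to 1.97), a difference that could not be seen at this depth. After 5-FU stem cells held 4 wild-type and 62 knockout UMIs of Adhfe1 (4.05, 2.62 to 5.97). Megakaryocyte-erythroid cells held 2 and 30 (3.69, 1.71 to 6.80), myeloid cells 0 and 10, and lymphoid cells 1 and 3. In that library the cells outside the stem class held 2 wild-type and 26 knockout UMIs (4.13, 2.14 to 7.25).

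Sult1a1 followed the stem markers in both genotypes. At homeostasis its wild-type level was 17.4 CPM in stem, 16.4 in megakaryocyte-erythroid, 8.80 in myeloid and 8.58 in lymphoid cells, and its knockout level 53.9, 42.1, 20.1 and 17.0 CPM. The log2 ratio was 1.63 (1.52 to 1.75) in stem and 0.98 (0.71 to 1.25) in lymphoid cells. Under the 80% tag rule, which called 868 knockout cells, the ratio was 1.71 in stem and 1.715 (191 and 74 UMIs) in lymphoid cells. It was 1.63 (113 and 33 UMIs) in myeloid and 1.13 (71 and 47 UMIs) in megakaryocyte-erythroid cells. The gap between stem and lymphoid cells was thus not seen under that rule, while the megakaryocyte-erythroid value was the lowest. Outside the stem class the levels were 4.60 and 8.82 CPM (0.94, 0.40 to 1.46), and with at least 4 stem markers 44.4 and 99.3 CPM (1.16, 0.99 to 1.34).

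After 5-FU the dependence of Sult1a1 on class was wider. Stem cells had 37.6 and 97.7 CPM (1.38, 1.27 to 1.49) and megakaryocyte-erythroid cells 18.2 and 41.4 CPM (1.19, 0.97 to 1.40). In cells positive for the megakaryocyte-erythroid class alone the levels were 7.65 and 8.76 CPM (0.20, -0.36 to 0.76). Of the whole megakaryocyte-erythroid class after 5-FU, 46.0% of wild-type and 56.3% of knockout cells were also stem-positive, and the part of that in its ratio was not tested. Myeloid cells had 12.1 and 17.1 CPM (0.49, 0.10 to 0.88). In myeloid-only cells the log2 ratio was -0.57 (35 and 14 UMIs), with an interval that includes 0 (-1.58 to 0.36). In lymphoid cells the levels were 15.4 and 16.2 CPM, a log2 ratio of 0.07 (-0.44 to 0.56). Cells outside the stem class had 9.57 and 11.2 CPM (0.23, -0.04 to 0.50). With at least 4 stem markers the levels were 68.4 and 199.7 CPM (1.55, 1.36 to 1.74).

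Pdgfc had the narrowest range of cells. Its knockout level at homeostasis was 14.4 CPM (12.9 to 15.9) in stem, 6.80 (4.62 to 9.66) in megakaryocyte-erythroid, 5.21 (3.43 to 7.58) in myeloid and 2.44 (1.58 to 3.60) in lymphoid cells, against 3.00, 1.52, 1.31 and 1.92 CPM in wild type. The lymphoid log2 ratio was 0.34 (-0.37 to 1.01), where a difference could not be seen, and with at least 3 lymphoid markers it was -1.21 (49 and 4 UMIs). Outside the stem class the 2085 wild-type cells held 18 UMIs and the 615 knockout cells 3, 0.987 and 0.540 CPM (-0.87, -3.28 to 0.91). With at least 4 stem markers the levels were 7.06 and 35.7 CPM (2.34, 1.95 to 2.74). After 5-FU, 38 of the 43 knockout UMIs were in stem-positive cells.

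**Figure D3:**
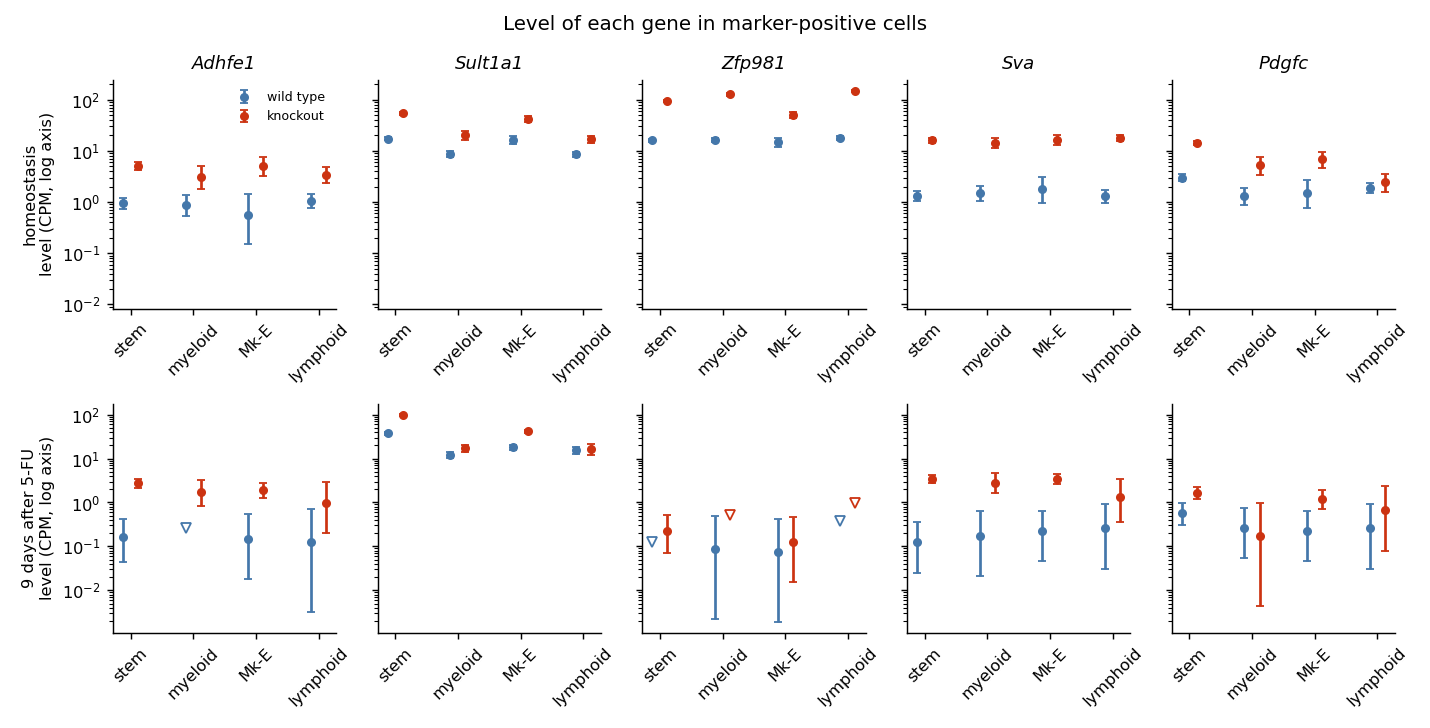
Level of each gene (CPM, log axis) in stem, myeloid, megakaryocyte-erythroid (Mk-E) and lymphoid marker-positive cells, at homeostasis (top) and after 5-FU (bottom). Points are pool levels with exact Poisson 95% intervals and open triangles mark the level of 3 UMIs where none was counted. Knockout Sva is at 14.3 to 18.1 CPM in all 4 classes at homeostasis, while knockout Pdgfc runs from 2.44 to 14.4 CPM.

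The levels of the 5 genes were compared over the number of stem markers. From fewer than 2 to at least 4 stem markers, the knockout level at homeostasis went from 8.82 to 99.3 CPM for Sult1a1, from 0.540 to 35.7 CPM for Pdgfc and from 1.80 to 7.30 CPM for Adhfe1. It stayed between 16.1 and 17.1 CPM for Sva and went the other way, from 130.5 to 77.3 CPM, for Zfp981. Wild-type Sult1a1 and Pdgfc followed the markers as well, from 4.60 to 44.4 CPM and from 0.987 to 7.06 CPM. Wild-type Adhfe1 was at 1.04 CPM (0.63 to 1.63, 19 UMIs) and 1.18 CPM (0.61 to 2.05, 12 UMIs), too few UMIs to see whether it followed the markers. Wild-type Zfp981 did not fall as its knockout level did. It was at 11.7 CPM (10.2 to 13.4) with fewer than 2 markers, 17.2 (15.9 to 18.6) with at least 3 and 15.0 (12.7 to 17.6) with at least 4. The first and last of these intervals overlap. The groups of 2, 3 and 4 or more markers are nested, and the splits under 2 and at 4 were chosen after the values by class had been seen.

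**Figure D4:**
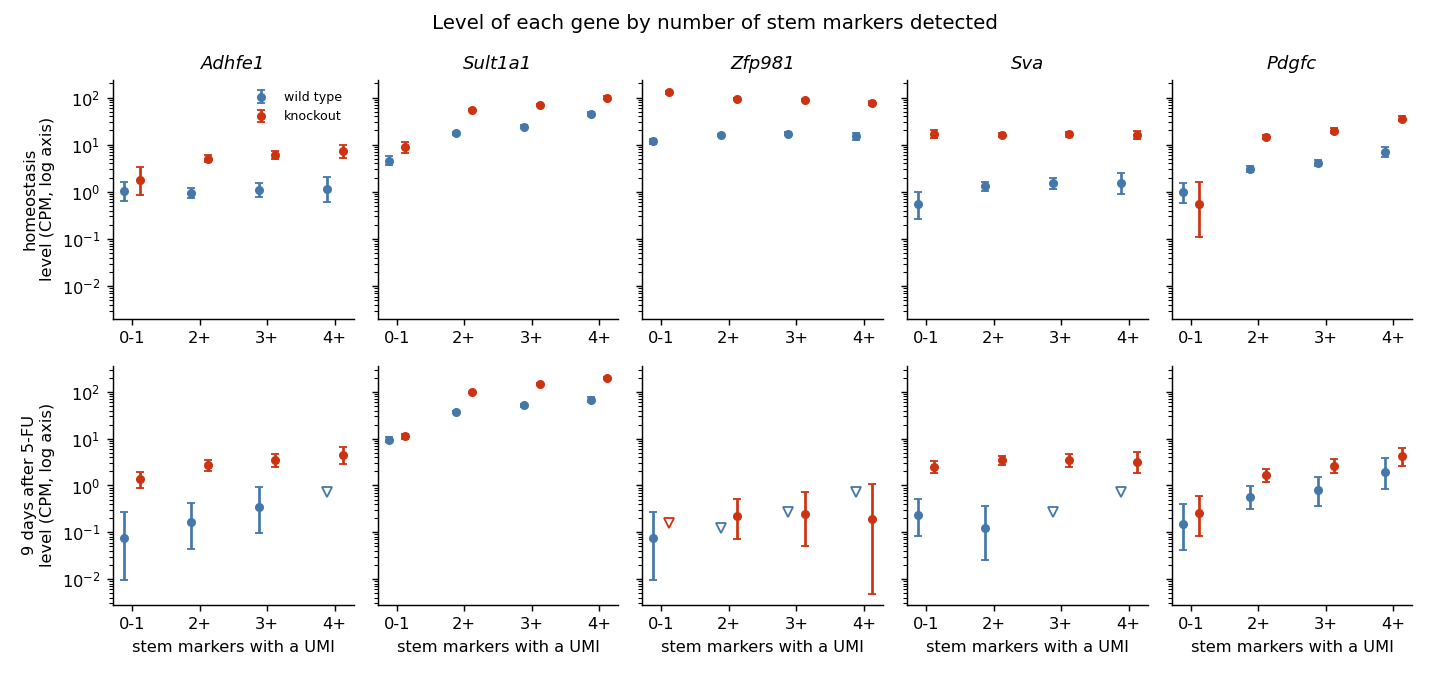
Level of each gene (CPM, log axis) in cells with 0 or 1, at least 2, at least 3 and at least 4 stem markers detected at 4000 UMIs, at homeostasis (top) and after 5-FU (bottom). Points are pool levels with exact Poisson 95% intervals and open triangles mark the level of 3 UMIs where none was counted. Knockout Sult1a1 at homeostasis climbs from 8.82 to 99.3 CPM while knockout Sva stays between 16.1 and 17.1 CPM.

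Genes whose levels ran most alike over the 16 pools (4 classes, 2 genotypes, 2 libraries, centred within a library) were sought among 11217 genes with at least 200 UMIs in each library. Pools share cells and are no independent samples, and as 8 of the 16 are of knockout cells, the difference that chose the genes is part of each correlation. Of the 5 genes only Sult1a1 had 200 UMIs after 5-FU, and likenesses are given for it alone. They were Spry1 (Pearson's r 0.98), Rras (0.98) and Cish (0.97).

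Relatives of the 5 genes were sought in 5 lists, and those with enough UMIs to be measured fell in 4 of them. At homeostasis 1 of 45 measured relatives was at least 2-fold higher, beside 1.9% of all genes, and 0 were at least 2-fold lower, beside 1.98%. After 5-FU 1 of 39 was higher, beside 1.23%, and 2 were lower, beside 1.63%. With at most 2 genes in either direction, nothing is read from these counts. Of 10 other sulfotransferases and genes of sulfate donor supply, 0 passed 2-fold in either direction at homeostasis, with a median log2 ratio of -0.05 beside 0.00 for all genes, nor did 8 after 5-FU (-0.16 beside -0.02). Papss1, which makes the sulfate donor, had log2 ratios of -0.07 and -0.29.

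Among 12 genes of hydroxy acid handling, Abat, which breaks down the neurotransmitter GABA, was at 2.03 and 4.33 CPM at homeostasis (1.09, 0.75 to 1.42) and at 1.37 and 0.895 CPM after 5-FU (-0.61, -1.22 to -0.03). The list's medians were -0.13 and -0.10. D2hgdh, which removes D-2-hydroxyglutarate, had log2 ratios of -0.02 and 0.08.

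Of the platelet-derived growth factor system, 7 genes were measured at homeostasis, with a median log2 ratio of -0.60 beside 0.00 for all genes. After 5-FU 6 were measured, with a median of -0.38 beside -0.02. They did not all go the same way. Pdgfd, the gene of this list with the most UMIs at homeostasis, was at 88.0 and 129.9 CPM there (0.56, 0.51 to 0.62). After 5-FU it was at 3.73 and 4.52 CPM (0.28, -0.02 to 0.58). Pdgfb had log2 ratios of 0.33 (-0.21 to 0.86) and 0.28 (-0.02 to 0.58). Pdgfrb, a receptor of this family, was at 38.6 and 25.5 CPM at homeostasis (-0.60, -0.71 to -0.49) and at 29.2 and 12.7 CPM after 5-FU (-1.20, -1.34 to -1.06). Nrp1, a coreceptor for several growth factors, had log2 ratios of -0.52 (-1.11 to 0.04) and -1.08 (-1.755 to -0.45). Pdgfra, the receptor of the Pdgfc protein, had 6 and 1 UMIs at homeostasis and 8 and 0 after 5-FU. Plat, a protease that cleaves the Pdgfc protein, had at most 3 UMIs in any pool.

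Of 16 other zinc finger genes of the chromosome 4 cluster and corepressors, none passed 2-fold at homeostasis (median 0.05), and 1 of 13 did after 5-FU (median 0.19). That gene was Zfp979, at 4.94 and 7.40 CPM at homeostasis (0.58, 0.35 to 0.82) and 3.65 and 10.5 CPM after 5-FU (1.53, 1.28 to 1.78). Trim28, the corepressor of KRAB proteins, had log2 ratios of -0.16 and 0.00. The other 4 genes of the prolactin-induced protein family, Pip and Sval1 to Sval3, had 0 UMIs in all pools, where 3 UMIs would be at most 0.0940 CPM, so Sva alone of its family was counted.

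Neighbours on the chromosome were compared to see whether a stretch of genes differed together. Of the 10 nearest measured genes, 0 around Adhfe1 and 0 around Zfp981 were at least 2-fold apart at homeostasis, with ranges of log2 ratios from -0.33 to 0.14 and from -0.62 to 0.97. The gene next to Adhfe1, Rrs1, ends 493 bases before it and had ratios of 0.04 and 0.12, and Mybl1 on the other side had -0.31 and 0.10. Next to Zfp981 were Zfp992 (0.12 and 0.50) and 1700095A21Rik (-0.62 at homeostasis).

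Near Sult1a1, Sgf29 and Slx1b (-0.08 and -0.17) were the closest, and 1 of 10 neighbours passed 2-fold in both libraries. It was Nupr1, a stress-responsive chromatin protein, at the third place before Sult1a1, with 1257 and 1206 UMIs at homeostasis (1.32) and 1061 and 2951 after 5-FU (1.76). Kel (0.89) and Gstk1 (0.22 and 0.82) flank Sva at 334055 and 203084 bases. Of 10 neighbours of Sva 1 was at least 2-fold higher at homeostasis, Trbc2 (64 and 59 UMIs, 1.26, 0.73 to 1.80), which was too low after 5-FU to be measured, and 1 of 6 was at least 2-fold lower after 5-FU, Trbc1 (0.69 at homeostasis and -1.84 after 5-FU). Both are T cell receptor constant segments, and Trbc2 was named after its value had been seen.

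Around Pdgfc one neighbour differed greatly in the opposite direction. Gria2, which encodes a glutamate receptor subunit and lies 233581 bases before Pdgfc, had 412 wild-type but 3 knockout UMIs at homeostasis (log2 ratio -5.72), and 73 and 0 after 5-FU. Ctso on the other side had ratios of -0.04 and 0.02. Gucy1b1, a subunit of the nitric oxide receptor at the third place after Pdgfc, was at 0.43 and 1.08.

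**Figure D5:**
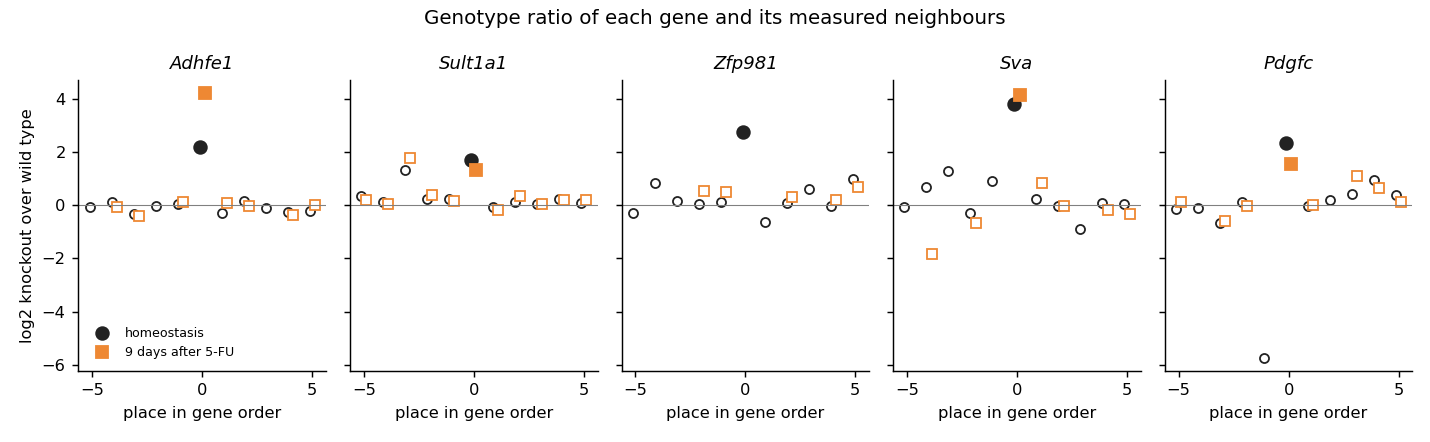
Log2 ratio of knockout over wild type for each gene (filled, at place 0) and the 5 nearest measured genes on each side (open), at homeostasis (circles) and after 5-FU (squares), by place in the gene order of GENCODE M21. The members were chosen for a higher knockout level, so nothing is read from their place above nearly all neighbours. Gria2 before Pdgfc lies at -5.72 at homeostasis (its 5-FU counts of 73 and 0 give no ratio and are not drawn).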

How the data were processed

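The authors deposited raw UMI counts for each gene and barcode from Cell Ranger (version 4 at homeostasis and 6.0.1 after 5-FU per the file headers). Their processing notes name mm9, while the reference used here for gene positions (GENCODE M21, which held 32235 of 32285 gene IDs) and promoters (RefSeq) is GRCm38. The homeostasis matrix was unfiltered, so barcodes with at least 2921 UMIs were taken as cells, and its rows were named from the 5-FU feature list (correlation of log CPM 0.957 in that order and at most 0.254 shifted by up to 3 rows). Genotypes were called with HTODemux in Seurat 5.3.0 at a positive quantile of 0.99. Cells with both tags were removed, and doublets within a genotype were not sought. Following the study's methods, the highest and lowest 2% of cells by UMIs, by genes and by mitochondrial share were left out. Departing from them, cells were removed for at least 2 UMIs of 9 lineage genes chosen here, where the study removed any cell expressing lineage markers, and lineage-primed cells, which the study also removed, were kept. UMIs were summed per pool (scipy 1.17.1). Levels have exact Poisson intervals, and shares and ratios exact Clopper-Pearson intervals. The script was tested on simulated counts. The 5 genes, the gene lists, the motifs and the classes were chosen with earlier results of these data known. Genes named beside the 5 were those of the lists, and of the 5 nearest measured neighbours on each side, with at least 50 UMIs in each library and a log2 ratio of at least 1 in size in either, the nearest neighbour on each side, and, for Sult1a1, the 3 genes most alike over the pools (0.5 counts added). The genes most alike to the other 4 are not given because these had under 200 UMIs after 5-FU. Papss1, D2hgdh, Trim28, Pdgfra, Plat and the relatives of Sva were named for their role after their values had been seen. Pdgfb and Pdgfd, the other measured genes of their list with a higher knockout level, were also named after their values had been seen.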

Additional observations from a re-analysis of the deposited data

How the results depend on the processing

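No ratio over all cells of a library changed direction. Across the alternatives the log2 ratios at homeostasis ranged from 1.94 to 2.52 for Adhfe1, 1.46 to 1.82 for Sult1a1, 2.64 to 3.62 for Zfp981, 3.35 to 5.22 for Sva and 2.02 to 2.60 for Pdgfc. After 5-FU they ranged from 3.595 to 4.79 for Adhfe1, 1.15 to 1.56 for Sult1a1, 3.53 to 5.80 for Sva and 1.46 to 1.85 for Pdgfc. Of 84 such values, of which 8 are for Zfp981 after 5-FU, 68 stayed within the counting interval of the value reported and 16 did not, and the cause was not tested. With a tag holding at least 80% of 10 tag UMIs they were 1.82 (Sult1a1), 3.62 (Zfp981), 5.22 (Sva) and 2.60 (Pdgfc) at homeostasis. At a higher positive quantile they were 2.64 (Zfp981) and 3.35 (Sva) at homeostasis and 1.15 (Sult1a1) after 5-FU. As the mean of per-cell CPM they were 2.86 (Zfp981) and 4.18 (Sva) at homeostasis and 1.501 (Sult1a1) after 5-FU. Thinned cells gave 2.90 for Zfp981 at homeostasis, and 1.56 for Sult1a1 and 5.80 for Sva (1 wild-type UMI) after 5-FU. With classes weighted to the same makeup the ratios at homeostasis were 1.46 (Sult1a1) and 2.02 (Pdgfc), and without the filter on depth and mitochondrial share 1.15 for Sult1a1 after 5-FU. In marker-positive cells 9 ratios changed sign. For 4 of them the reported interval lay apart from 0. At homeostasis these were Adhfe1 in myeloid cells with at least 3 markers (-0.44) and in lymphoid-only cells (-0.35), and Pdgfc in megakaryocyte-erythroid cells with at least 3 markers (-0.077). After 5-FU it was Sult1a1 in myeloid-only cells (-0.57). The Adhfe1 and Pdgfc values among these 4 rested on too few UMIs to be read. The other 5 were Pdgfc in lymphoid cells at homeostasis with at least 3 markers (-1.21, 49 and 4 UMIs) and in lymphoid-only cells (-1.35, 8 and 1) and, after 5-FU, Pdgfc in lymphoid-only cells (-0.099, 2 and 1), Sult1a1 in lymphoid cells with at least 3 markers (-0.75, 35 and 9), and Zfp981 in megakaryocyte-erythroid cells under the 80% tag rule (-0.32, 2 and 2). Under the 80% tag rule Sult1a1 in lymphoid cells at homeostasis passed 2-fold (1.715 against 0.98). A fold of 1.5 in place of 2 gave 5 higher and 5 lower of 45 relatives at homeostasis (5.41% and 5.38% of all genes) and 4 higher and 3 lower of 39 after 5-FU (3.6% and 4.89%). The split at 4 stem markers and the homeostasis minimum of UMIs applied to the 5-FU cells were added after seeing the data. No paired analysis was possible because each group had 1 pool and no result came from a test, and no pool could be left out. Lymphoid cells after 5-FU (251 knockout cells) were too few to see differences in Adhfe1, Sva or Pdgfc.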
